A study of Rattus norvegicus with 10 samples.

Results

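The miR-17-92 cluster and its paralogous clusters miR-106a-363 and miR-106b-25 were represented by 10 guide strands. A guide strand is the arm of a hairpin that mainly enters the silencing complex, and which arm did so was not measured here. The 10 strands were taken by name from the 761 rat microRNAs (miRNAs) on the array, with no rule on their measured values. Earlier results of these data were known when the list was chosen. All 10 were tested, and 9 of them were detected on every array. The tissue was left ventricle from Wistar rats, all male and weighing 250 to 350 g. The DEX group was infused intravenously for 30 min with dexmedetomidine (DEX), an alpha2 adrenergic agonist used for sedation, followed by a washout with saline, and the Control group was infused with saline at the matched rate. Each group held 5 arrays, each from the heart of a different rat per the study's methods, and no ischaemia was applied. Sevoflurane and butorphanol anaesthesia is described for the surgical model of the same study, and the RNA came from the anterior wall, so a change elsewhere in the ventricle would not be seen. In a piece of ventricle wall, fewer cells of a type and less RNA per cell cannot be told apart.

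A miRNA guides the silencing complex to messenger RNAs that pair with its seed, so miRNAs with the same seed share most of their targets. The miR-17-92 transcript is induced by Myc and is known as an oncogenic miRNA cluster, whose products repress the death-promoting protein Bim and cell cycle regulators such as E2f1. In the heart the cluster is known for promoting cardiomyocyte proliferation around birth, and miR-92a is known for restraining vessel growth in endothelium.

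The mature sequences show which members can act on the same targets. They are taken from RefSeq (build GRCr8), run 5′ to 3′, and have the seed, bases 2 to 8, in capitals. The miR-17 seed was shared by 5 members:
rno-miR-17-5p: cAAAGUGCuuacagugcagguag
rno-miR-20a-5p: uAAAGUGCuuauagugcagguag
rno-miR-20b-5p: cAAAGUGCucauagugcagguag
rno-miR-106b-5p: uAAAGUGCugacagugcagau
rno-miR-93-5p: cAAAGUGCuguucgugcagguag
The seed of rno-miR-18a-5p departs from these at a single base:
rno-miR-18a-5p: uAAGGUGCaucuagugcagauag
The miR-19 seed was shared by the next pair, and the miR-92 seed by the last pair:
rno-miR-19a-3p: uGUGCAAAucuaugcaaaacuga
rno-miR-19b-3p: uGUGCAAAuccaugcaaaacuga
rno-miR-92a-3p: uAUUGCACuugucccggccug
rno-miR-25-3p: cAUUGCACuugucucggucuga

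Within a seed group the strands are close to each other in sequence. Counted from 1 at the 5′ end, rno-miR-19a-3p and rno-miR-19b-3p differed only by U11C. rno-miR-17-5p and rno-miR-20b-5p differed by U10C and C12U, and rno-miR-17-5p and rno-miR-20a-5p by C1U and C12U. rno-miR-92a-3p and rno-miR-25-3p differed by U1C, C14U and C18U over 21 compared bases. Within the seed, rno-miR-17-5p and rno-miR-18a-5p differed by A4G. Each member had 1 probe, and how far a probe also binds its near relatives was not tested.

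The members come from 3 places in the genome. The miR-17-92 cluster lies at chr15:98587861-98588622 on the plus strand and gives 6 of the members. The miR-106a-363 cluster lies at chrX:137342788-137343637 on the minus strand and gives 4. The miR-106b-25 cluster, at chr12:22156652-22157123 on the minus strand, gives 3 and lies inside Mcm7, the gene of a subunit of the replication helicase. rno-miR-17-5p, rno-miR-19b-3p and rno-miR-92a-3p have the same mature sequence on chromosomes 15 and X, so their signal cannot be assigned to either cluster. Among the others, rno-miR-18a-5p, rno-miR-19a-3p and rno-miR-20a-5p come from chromosome 15, rno-miR-20b-5p from X, and rno-miR-93-5p, rno-miR-106b-5p and rno-miR-25-3p from chromosome 12.

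Signals are spot intensities over the blank spots, scaled so that the detected miRNAs of each array had a median of 25. Between 483 and 533 miRNAs were detected per array, and undetected ones were set to the lowest detected signal of the array, between 3.64 and 5.09, called the floor. The array names placed Control 1 to 4 on slide 1, Control 5 with DEX 1 to 3 on slide 2, and DEX 4 and 5 on slide 3, so slide and group were largely confounded. Before scaling, DEX 1 was the dimmest array, with a median of 17.3 over blank against 35.4 to 53.5 on the other arrays. Markers of heart muscle (4 of 4), endothelium (2 of 2), smooth muscle (2 of 2), white blood cells (4 of 4) and red blood cells (3 of 3) were detected on every array. None of these marker miRNAs passed the limma test of a group difference. Their summed signal in the Control and DEX groups ran from 18827 to 27616 and 19082 to 28148 for heart muscle. It ran from 4360 to 5783 and 4370 to 6739 for endothelium, and from 2433 to 3711 and 2654 to 3857 for smooth muscle. For white blood cells it ran from 690 to 889 and 804 to 1073, and for red blood cells from 564 to 1028 and 349 to 1004. The red blood cell markers had log2 differences (DEX minus Control) of -0.59 for rno-miR-451-5p, -0.75 for rno-miR-144-3p and 0.02 for rno-miR-486.

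None of the 10 members passed the test of a difference between the groups. The test was limma with Benjamini-Hochberg adjustment over all 503 tested miRNAs, and the smallest adjusted p of a member was 0.905. Over all 503 miRNAs, 0% passed the adjusted threshold and 2.98% (15 miRNAs) had an unadjusted limma p under 0.05, none of them a member. The members' log2 differences (DEX minus Control) ran from -0.04 to 0.22 with a median of 0.07, beside a median of 0.04 over all tested miRNAs. The estimate was above 0 for 9 of the 10 members, beside 59.2% of all tested miRNAs. The members varied together across arrays, so these signs are not 9 separate observations. Of the 10 members, 8 lay above the median of all tested miRNAs, with 4 above it without DEX 5 and 9 without DEX 2. In every member the signals of the groups overlapped, and the share of all tested miRNAs that did so was not counted.

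**Figure D1:**
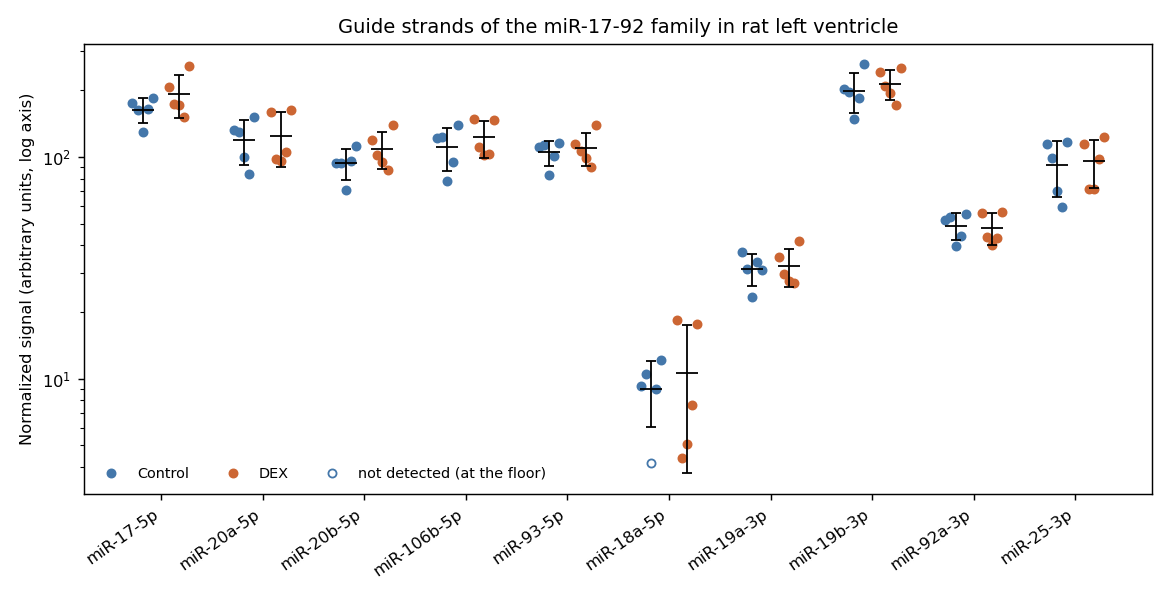
Normalized signal (arbitrary units, log axis) of the 10 guide strands in the 5 Control and 5 DEX arrays. Points are arrays, black bars are mean ± SD, and the open point is the Control array on which rno-miR-18a-5p was not detected. The groups overlap in every member, and rno-miR-18a-5p is close to the floor.

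In the miR-17 seed group, rno-miR-17-5p had normalized signals of 175, 164, 130, 165 and 185 on Control 1 to 5 and of 207, 174, 171, 151 and 257 on DEX 1 to 5. The highest value was that of DEX 5 and the lowest that of Control 3, and 3 of the DEX arrays lay within the Control range. Its mean was 192 ± 41.5 in the DEX group vs. 164 ± 20.8 in the Control group (SD, n = 5 each), and its log2 difference of 0.22 ± 0.17 (SE) was the highest among the members (limma adjusted p = 0.905).

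rno-miR-20b-5p, its close relative from the X chromosome, gave 94.2, 94.1, 71.4, 95.8 and 113 on Control 1 to 5 and 119, 102, 95.6, 87.9 and 140 on DEX 1 to 5. Control 3 and DEX 5 were again the extremes. The log2 difference was 0.21 ± 0.17 (SE; limma adjusted p = 0.905).

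rno-miR-20a-5p gave 133, 130, 99.8, 84.1 and 151 on Control 1 to 5 and 160, 97.8, 96.0, 106 and 164 on DEX 1 to 5. The 4 lowest arrays were Control 3, Control 4, DEX 2 and DEX 3, so each group held high and low arrays. The difference between groups was 0.05 ± 0.22 on the log2 scale (SE, adjusted p from limma 0.955).

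The guide strands of the Mcm7 cluster with this seed overlapped between the groups in the same manner. rno-miR-106b-5p ranged from 77.7 to 139 in the Control group and from 102 to 149 in the DEX group, with means of 111 ± 24.6 and 123 ± 23.5 (SD, n = 5 each). rno-miR-93-5p ranged from 82.7 to 116 and from 90.4 to 139, with means of 105 ± 13.7 and 110 ± 18.8 (SD, n = 5 each). Neither difference exceeded the spread between arrays.

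rno-miR-18a-5p was the dimmest member. Its signals were 9.32, 10.5, 4.18, 8.95 and 12.1 on Control 1 to 5 and 18.5, 4.37, 5.06, 7.61 and 17.7 on DEX 1 to 5. It was not detected on Control 3, where the value is the floor, and its highest signal was 3.71 times the floor of the same array. Signals on DEX 1 and DEX 5 exceeded every Control array, while DEX 2, DEX 3 and DEX 4 lay below most of them. The log2 difference was 0.06 ± 0.42 (SE), with a 95% interval from -0.86 to 0.98, so the data bound a change in rno-miR-18a-5p only to between 0.552-fold and 1.98-fold.

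In the miR-19 pair, rno-miR-19b-3p gave 203, 197, 149, 184 and 262 on Control 1 to 5 and 242, 210, 195, 171 and 253 on DEX 1 to 5. Its highest value was on Control 5 and its lowest on Control 3, so the Control group spanned the whole DEX range. rno-miR-19a-3p ranged from 23.4 to 37.2 in the Control group and from 26.9 to 42.0 in the DEX group. The log2 differences were 0.11 ± 0.17 and 0.04 ± 0.17 (SE) for rno-miR-19b-3p and rno-miR-19a-3p.

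In the miR-92 pair, rno-miR-92a-3p gave 51.9, 53.7, 39.9, 44.2 and 55.6 on Control 1 to 5 and 55.9, 43.4, 40.2, 43.0 and 56.8 on DEX 1 to 5. It varied least of all members, with 1.42-fold between its highest and lowest arrays, and was the only member with an estimate below 0, a log2 difference of -0.04 ± 0.16 (SE). rno-miR-25-3p gave 114, 99.6, 70.2, 59.3 and 117 on Control 1 to 5 and 114, 72.0, 72.1, 98.1 and 124 on DEX 1 to 5. Both groups again held high and low arrays, and the log2 difference was 0.08 ± 0.23 (SE; limma adjusted p = 0.945).

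For the 9 members other than rno-miR-18a-5p, the 95% intervals of the group difference lay between log2 values of -0.43 and 0.58, which is 0.744-fold to 1.49-fold. Within slide 2, the only slide with both groups, the median of the members was -0.25 beside -0.19 over all tested miRNAs, and only rno-miR-92a-3p had the same sign as over all arrays. That value rests on Control 5 as the only Control array of the slide, and no member was called.

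**Figure D2:**
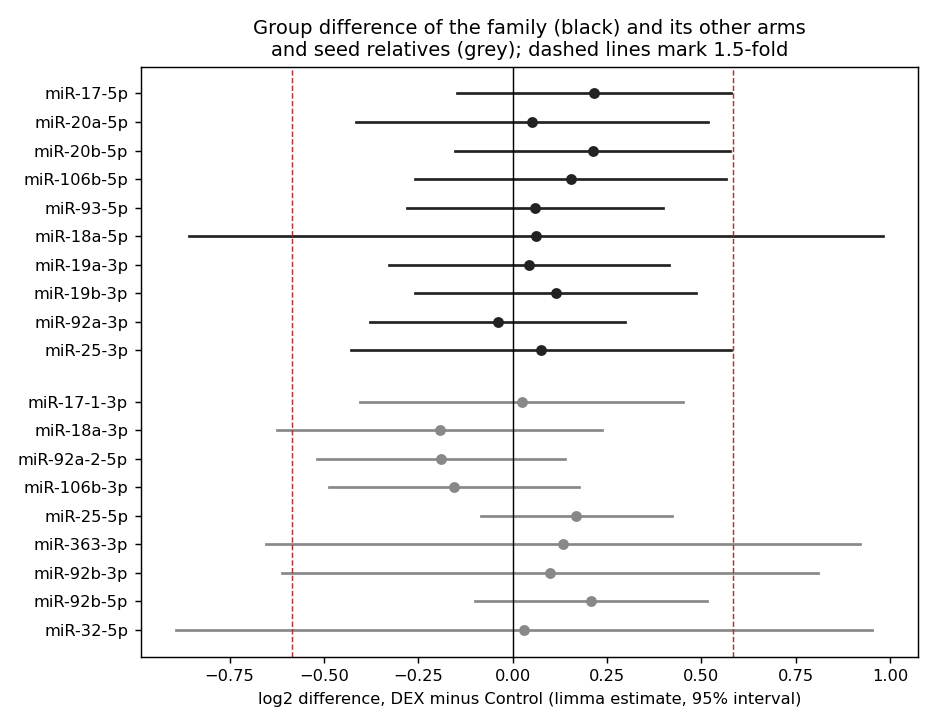
Log2 difference (DEX minus Control) of the 10 guide strands (black) and of the 9 tested other arms and seed relatives (grey), with limma 95% intervals. Dashed lines mark 1.5-fold in either direction, and the interval of every miRNA shown spans 0.

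A list of 19 other arms and seed relatives was examined beside the members. It held the other strands of the members' hairpins, both arms of miR-363 from the X cluster, and both arms of miR-92b and miR-32, which lie elsewhere and carry the miR-92 seed on the guide strand. All 19 had a probe, 5 were detected on no array, and 9 were tested. None of the 9 passed the test of a group difference, and the smallest unadjusted limma p was 0.169, that of rno-miR-92b-5p.

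Among the other arms, rno-miR-25-5p had a mean of 83.9 ± 5.01 in the DEX group vs. 74.6 ± 3.61 in the Control group (SD, n = 5 each; log2 difference 0.17, limma adjusted p = 0.905). The log2 differences of rno-miR-17-1-3p, rno-miR-18a-3p, rno-miR-92a-2-5p and rno-miR-106b-3p were 0.02, -0.19, -0.19 and -0.16. The 5 tested other arms had a median of -0.16. Among the seed relatives, rno-miR-363-3p, the guide of the X cluster with the miR-92 seed, was near the floor and detected on 3 Control and 4 DEX arrays (log2 difference 0.13). rno-miR-92b-3p, with the same seed, had a log2 difference of 0.10, with the badly marked spot on Control 1 left missing, and its other arm rno-miR-92b-5p one of 0.21. rno-miR-32-5p gave 0.03. Mean signals in Control and DEX were 13.1 and 14.9 for rno-miR-92b-3p, and 241 and 279 for rno-miR-92b-5p. They were 9.01 and 10.6 for rno-miR-18a-5p, and 13.1 and 11.3 for rno-miR-18a-3p. By these means the guide was the dimmer arm of miR-92b and miR-18a. Both arms of miR-18a were near the floor, and its guide was brighter on Control 1, Control 5, DEX 1 and DEX 5. In the miR-17, miR-25, miR-92a-2 and miR-106b hairpins the guide had the higher mean in both groups. In that order, Control means of guide and other arm were 164 and 9.66, 92.0 and 74.6, 49.1 and 28.4, and 111 and 34.7. Each arm has its own probe, and how far probes differ in brightness for equal RNA was not tested.

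Arrays differed more from each other than the groups did, and they differed in the same way for most members. Averaged over the 9 members detected everywhere, the log2 deviation from each member's own mean was 0.10, 0.04, -0.40, -0.20 and 0.21 on Control 1 to 5 and 0.26, -0.09, -0.17, -0.16 and 0.41 on DEX 1 to 5. On DEX 1 and DEX 5 all 9 lay above their own means, and on Control 3 and DEX 3 none did. With arrays scaled on the miRNAs detected everywhere, 8 of the 9 lay above on DEX 1, 9 on DEX 5 and 0 on Control 3, but 5 did on DEX 3, and 6 did on Control 4 against 1 before. With each array scaled on its own detected miRNAs, the group means of this average differed by 0.10, beside a within-group SD of 0.26. Its range over the arrays was 0.81, or 1.75-fold, and such a range cannot be smaller than the difference between the group means.

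**Figure D3:**
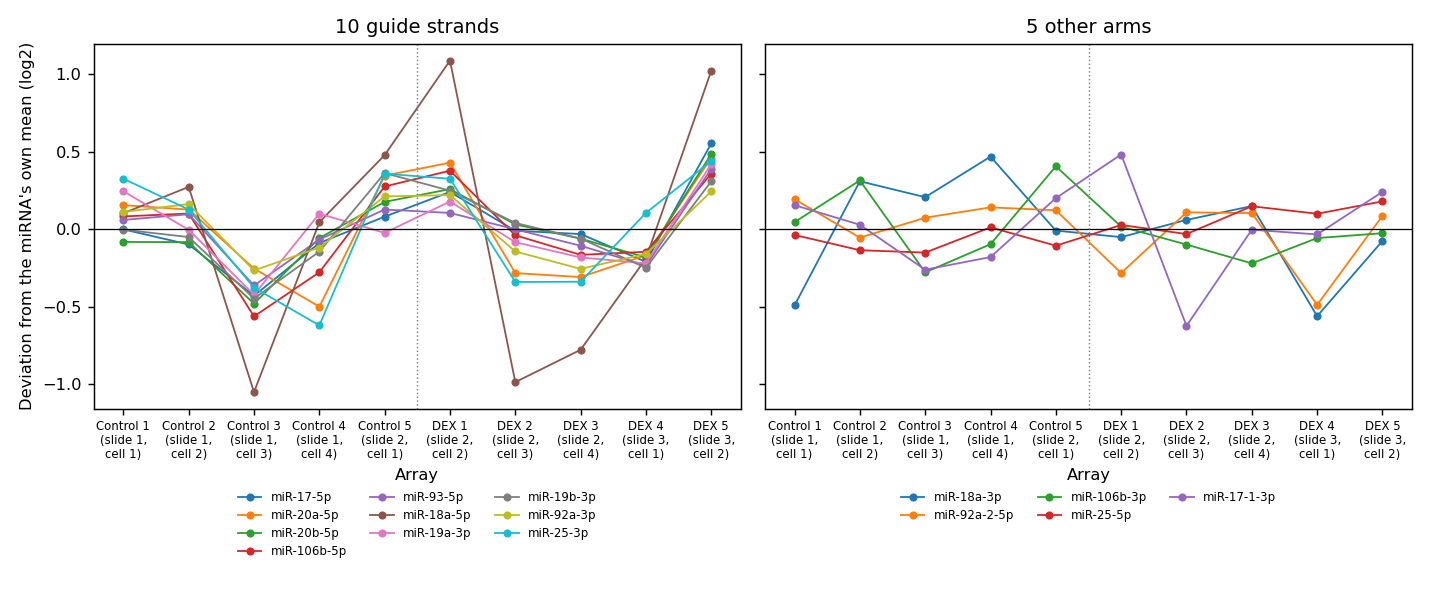
Log2 deviation of each miRNA from its own mean on the 10 arrays, for the 10 guide strands (left) and the 5 tested other arms (right), with slide and cell number under each array. On DEX 5 all 10 guide strands lie above their own mean and on Control 3 all 10 lie below it, while their highest and lowest arrays differ: rno-miR-20a-5p and rno-miR-25-3p are lowest on Control 4, and rno-miR-19b-3p is highest on Control 5.

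Co-variation was computed for the 45 pairs of members over the 10 arrays. Median Pearson r was 0.811 (range 0.563 to 0.977) and median Spearman's rho 0.794. After Benjamini-Hochberg adjustment over 50 relations, 41 of the 45 pairs passed 0.05 for r and 38 for rho in a two-sided permutation test with 100000 resamples. Over all 81810 pairs of miRNAs detected on every array the median r was 0.253, and 15.9% of them reached the lowest r (0.656) at which a pair of members passed. Scaling, slide and brightness of the arrays are shared by every pair.

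The highest Pearson r was that of rno-miR-17-5p, encoded on chromosomes 15 and X, with rno-miR-20b-5p, encoded on X (r = 0.977, rho = 0.915, permutation adjusted p = 0.00075 and 0.004). Without the 2 arrays farthest from the median of rno-miR-17-5p, r was 0.937, and after quantile normalization it was 0.657. By rho the order differed, with the highest value for rno-miR-93-5p and rno-miR-92a-3p (rho = 0.964, r = 0.861, permutation adjusted p = 0.0015 for both). rno-miR-20a-5p and rno-miR-25-3p, from different clusters and with different seeds, followed the same order closely (r = 0.943, rho = 0.915, permutation adjusted p = 0.00075 and 0.004; r = 0.906 without 2 arrays). The lowest Pearson r was that of rno-miR-19a-3p with rno-miR-25-3p (r = 0.563, rho = 0.600, permutation adjusted p = 0.0983 and 0.0817), and it was 0.309 without 2 arrays. The lowest rho was that of rno-miR-20a-5p and rno-miR-20b-5p (rho = 0.479, r = 0.691, permutation adjusted p = 0.176 and 0.0275). Over all 45 pairs the median without 2 arrays was 0.723 (range 0.309 to 0.961).

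By seed, the median r was 0.866 over the 12 pairs with the same seed and 0.797 over the 33 pairs with different seeds. The median rho had the reverse order, 0.788 and 0.806. Over the 6 pairs whose strands both come only from the same cluster, the median r was 0.808, beside 0.811 over all 45 pairs. Pairs from different clusters were not summarized as a set. The difference between these sets was not tested.

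The correlations held within groups and slides and were lower under other scalings. The median r of the member pairs was 0.855 after group means were removed and 0.856 after slide means were removed, with 0.320 over all pairs after slide means were removed. No slide holds more than 4 arrays, too few for a value within 1 slide. When each array was scaled on the 405 miRNAs detected everywhere, the median over the member pairs was 0.644 (range 0.174 to 0.961) beside 0.0434 over all pairs. With quantile normalization it was 0.549 (range -0.03 to 0.882) beside -0.00056 over all pairs. The range of the members' average over arrays narrowed from 0.81 to 0.57 and 0.38 on the log2 scale under these scalings.

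**Figure D4:**
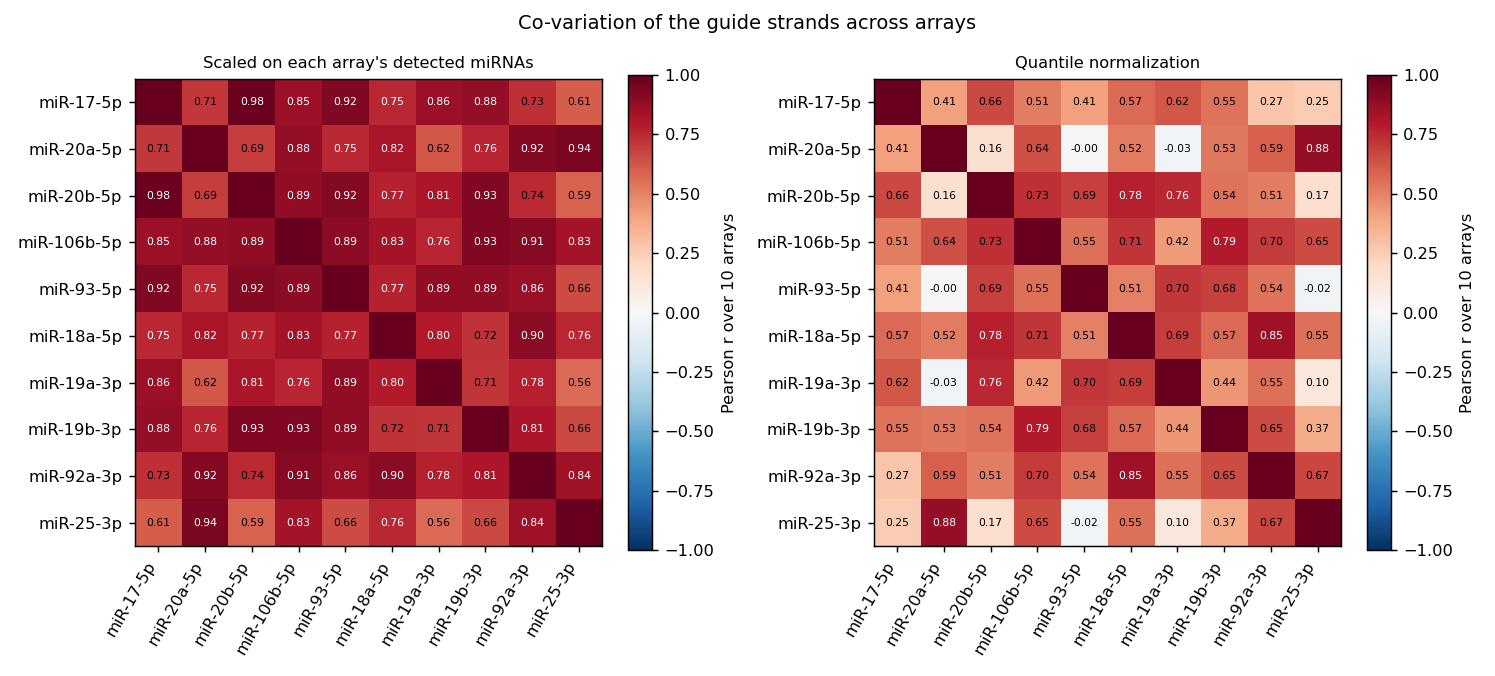
Pearson r of every pair of guide strands over 10 arrays, with each array scaled on its own detected miRNAs (left) and after quantile normalization (right). Median r is 0.811 on the left and 0.549 on the right, and rno-miR-20a-5p with rno-miR-25-3p stays high on both sides (0.943 and 0.882).

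The other arms did not all follow the guide strand of their own hairpin. For the 5 hairpins with both arms detected on at least 5 arrays, r between the arms was 0.559 (miR-17), 0.651 (miR-106b), 0.103 (miR-25), -0.01 (miR-92a-2) and -0.17 (miR-18a). In the permutation test 1 of the 5 passed for r after adjustment, and 2 for rho. rno-miR-17-5p and rno-miR-92a-3p also come from a hairpin on another chromosome, so their r does not describe a single hairpin. rno-miR-17-1-3p (1.66 to 2.71 times the floor) and rno-miR-18a-3p (1.73 to 4.53 times) were near the floor. rno-miR-18a-5p was at the floor on Control 3. The median r of these 5 pairs of arms was 0.103. It was -0.29 with scaling on the miRNAs detected everywhere and -0.33 under quantile normalization. It was positive when sets of arrays by cell number were taken into account, as given below. The tested other arms had a GC content of 50 to 63.6% (median 54.5%) and the members one of 34.8 to 57.1% (median 45.7%), and the part of base composition in the correlations was not tested.

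The members' average was also set beside measures of the arrays. Over the 10 arrays it had r = 0.738 and rho = 0.723 with the number of detected miRNAs, which became r = 0.440 and rho = 0.480 when arrays were scaled on the miRNAs detected everywhere. With the log2 median signal over blank before scaling, the members' average had r = -0.60 and rho = -0.79, and r = -0.52 and rho = -0.78 with that scaling. The main scaling divides each array by this same median, and the other scaling by a related one. Part of a negative relation was therefore built in. In the main scaling this median is taken over each array's own detected miRNAs, so it also depends on how many were detected. The positive relation with the number of detected miRNAs was therefore not independent of the scaling either. These are descriptions of 10 arrays, and the part of array brightness in the shared pattern was not tested.

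The pattern was also common outside the clusters. Among 390 other miRNAs detected on every array, the 3 whose signal was most like the members' average over the 10 arrays were rno-miR-191a-5p (r = 0.977), rno-miR-301a-3p (r = 0.964) and rno-let-7f-5p (r = 0.963). Their r was 0.936, 0.940 and 0.889 with scaling on the miRNAs detected everywhere, and 0.849, 0.831 and 0.682 after quantile normalization. The median r of all 390 was 0.551, and 37 exceeded 0.9. None of these 3 passed the test of a group difference.

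The array names also carry a number called cell, from 1 to 4, which is not a biological cell. It was read here as the place of the array on its slide, which the labels do not state. It was examined because Control 3, Control 4, DEX 2 and DEX 3 had low signals in several members, and cells 3 and 4 are exactly these 4 arrays. The values are therefore a description of the arrays that prompted it, with no test. rno-miR-25-3p was at 98.1 to 124 on the 6 arrays of cells 1 and 2 and at 59.3 to 72.1 on the 4 arrays of cells 3 and 4, with means of 111 ± 10.2 and 68.4 ± 6.13 (SD). rno-miR-20a-5p was at 106 to 164 and 84.1 to 99.8, with means of 141 ± 22.0 and 94.4 ± 7.04 (SD). Of the tested other arms and seed relatives, rno-miR-106b-3p and rno-miR-92b-3p also had no overlap between these sets of arrays. How many of all tested miRNAs had none was not counted.

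Over the 10 members the log2 differences (cells 3 and 4 minus cells 1 and 2) had a median of -0.29, beside -0.23 over all tested miRNAs. With arrays scaled on the miRNAs detected everywhere, these medians were -0.12 and -0.06, and the log2 difference of rno-miR-25-3p was -0.52 in place of -0.70. With the means of these sets of arrays removed, the median r of the member pairs was 0.711 (range 0.0951 to 0.971), beside 0.186 over all pairs. Within the 6 arrays of cells 1 and 2, the member pairs had a median of 0.853. For the 5 pairs of arms of the same hairpin, the median r was 0.362 (range 0.182 to 0.635) and 0.493 in these settings, in that order. For the 6 pairs from the same cluster only, it was 0.521 and 0.804. Each group had 3 arrays in cells 1 and 2 and 2 in cells 3 and 4. With this balance, a term for these sets of arrays cannot change a member's estimated group difference. The members' median of 0.07 under that term was therefore fixed in advance, and no member was called.

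**Figure D5:**
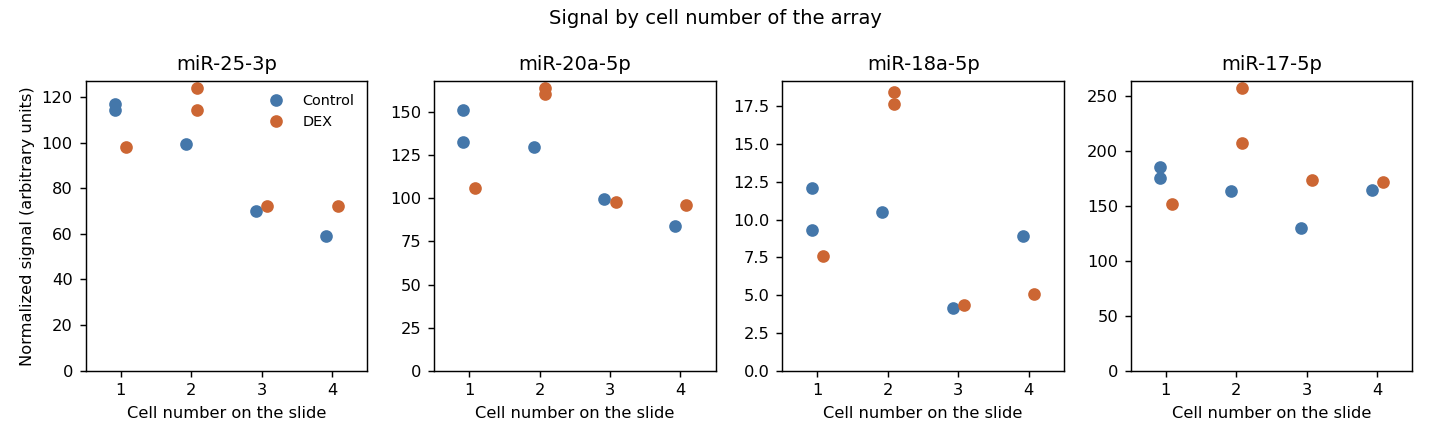
Normalized signal (arbitrary units) of 4 guide strands against the cell number of the array, coloured by group. rno-miR-25-3p and rno-miR-20a-5p are lower on all 4 arrays of cells 3 and 4 than on any array of cells 1 and 2, in both groups, while rno-miR-17-5p overlaps. The share of all tested miRNAs without overlap was not counted.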

How the data were processed

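Total RNA was labelled with Cy5 and hybridized to 1-colour rat miRNA chips, 1 array per sample. The authors deposited scanner files with the spot intensity at 635 nm on a linear scale, with no background removed, and a series value table whose whole-number score per miRNA is the blank-subtracted intensity, globally scaled, with undetected miRNAs left empty. The rule recovered here gave 99.82% of 5038 scores within 0.51, and its detection calls differed in 2 of 7610. The miRBase release and the versions of the scanner and its extraction software are not given in the sources used here.

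The mean of the 1664 blank spots (5% trimmed at each end) was subtracted, the median over each array's own detected miRNAs was set to 25, undetected miRNAs were set to the array's lowest detected value, 4 badly marked miRNA spots stayed empty, and values were put on the log2 scale. Detection on 5 or more arrays left 503 miRNAs for limma 3.58.1 (R 4.3.3; lmFit and eBayes, two-sided, Benjamini-Hochberg, threshold 0.05), with code tested on simulated data. Correlations used numpy 2.4.6 and scipy 1.17.1 in Python 3.11.15, and figures matplotlib 3.10.9. No column of the deposited tables was left without a sample (0 unused).

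The members, lists and tests were chosen with earlier results of these data known. Named miRNAs were the 10 members, the tested other arms and seed relatives, the marker lists, and the 3 other miRNAs most correlated with the members' mean. Sequences and positions were matched by miRNA name to RefSeq (GRCr8), where all 10 members and 19 listed relatives had an entry. Alternatives covered background, scaling, value source, filter, floor, slide, replicate block, model, the methods' t-test and each array left out, with 2 terms for cell number added after the data had been seen. The number of arrays limits the precision.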

Additional observations from a re-analysis of the deposited data

Results flagged for a closer look

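In the Control group, rno-miR-18a-5p had its lowest array apart from the others: on the log2 scale the gap between Control 3, where it was not detected and stands at the floor of 4.18, and the next array took 0.717 of the range of the group, above Dixon's critical value of 0.71 for 5 samples. It was 1 of 37 groups of arrays examined, of which chance would give about 1.85.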

How the results depend on the processing

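Under 29 alternatives no member was called and no tested miRNA passed the adjusted threshold (smallest adjusted limma p of a member 0.615, of any miRNA 0.0608); at an unadjusted p under 0.05 the count over all miRNAs ran from 7 without background correction to 36 without Control 5, against 15, and was 15 with the methods' t-test. Of 289 member values, 233 kept their sign and 56 did not, and all lay between -0.70 and 0.32. With slide as a fixed term, which gives the same estimates as slide 2 alone, the members' median was -0.25 (all tested miRNAs -0.19), and rno-miR-17-5p was -0.015, rno-miR-20a-5p -0.40, rno-miR-20b-5p -0.10, rno-miR-106b-5p -0.22, rno-miR-93-5p -0.13, rno-miR-18a-5p -0.70, rno-miR-19a-3p -0.0056, rno-miR-19b-3p -0.29 and rno-miR-25-3p -0.48. Without scaling, where the median of all tested miRNAs was -0.16, rno-miR-20a-5p was -0.15, rno-miR-106b-5p -0.052, rno-miR-93-5p -0.15, rno-miR-18a-5p -0.14, rno-miR-19a-3p -0.16, rno-miR-19b-3p -0.091 and rno-miR-25-3p -0.13. Without slide 3, rno-miR-20a-5p was -0.029, rno-miR-18a-5p -0.20, rno-miR-19a-3p -0.0081 and rno-miR-25-3p -0.081. With normexp on the background column, rno-miR-93-5p was -0.027, rno-miR-19a-3p -0.011, rno-miR-19b-3p -0.073 and rno-miR-92a-3p 0.0048. Without background correction, rno-miR-20a-5p was -0.014 and rno-miR-93-5p -0.0050. Quantile normalization gave rno-miR-20a-5p -0.0039 and rno-miR-19b-3p -0.019, spike scaling gave rno-miR-92a-3p 0.021, and for rno-miR-18a-5p undetected values left missing gave -0.19 and cell number as a term -0.076. Apart from the construction of these alternatives, the cause was not tested.

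With 1 array left out at a time, counts of calls stayed at 0 and the members' median ran from -0.03 (without DEX 5) to 0.18 (without Control 5). Estimates ran from 0.10 to 0.30 for rno-miR-17-5p, -0.067 to 0.14 for rno-miR-20a-5p, 0.12 to 0.28 for rno-miR-20b-5p, 0.03 to 0.24 for rno-miR-106b-5p, -0.030 to 0.13 for rno-miR-93-5p, -0.20 to 0.32 for rno-miR-18a-5p, -0.057 to 0.11 for rno-miR-19a-3p, 0.02 to 0.22 for rno-miR-19b-3p, -0.11 to 0.020 for rno-miR-92a-3p and -0.070 to 0.17 for rno-miR-25-3p. With the replicate number as a block, 0 miRNAs were called and 35 had an unadjusted limma p under 0.05. The members' median was 0.07, which this balanced block could not change. Deviations of same-numbered arrays had r from -0.08 to 0.11, over 0.1 for 1 of 5 numbers, and 1 of 5 Control arrays correlated best with its own number, so the arrays share only a number. rno-miR-18a-5p lies within 3.71 times the floor on every array, and the number of arrays limits every interval.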
